A study of Homo sapiens with 15 samples.

Results

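Plasminogen activation was described here through 5 genes of the human fibrosarcoma line HT-1080: PLAU, PLAT, PLAUR, SERPINE2 and SERPINB2. They were chosen by symbol, as the rows of the deposited count table whose Ensembl identifiers carry those names, and are 5 of 60670 genes in that table. RNA of 15 libraries had been sequenced in 5 groups of 3, labelled as biological replicates. Cycling cells received the vehicle DMSO for 6 h. In the other 4 groups senescence had been induced by a dominant negative TRF2 expressed for 6 days, which uncaps telomeres. These senescent cells then received DMSO for 6 h, 1 uM GNF-7 for 6 h, DMSO for 24 h or 1 uM GNF-7 for 24 h. TRF2 is a telomere-binding protein of the shelterin complex. GNF-7 is a kinase inhibitor that the study's title links to GCN2, a kinase of the amino acid stress response. No GNF-7 group of cycling cells and no cycling group at 24 h was analysed here, so a response to GNF-7 can be given for senescent cells only. All groups come from 1 established tumour line. The labels do not say whether cycling cells carried the uninduced TRF2 construct, nor whether replicates were separate cultures. If they were not, p-values measure only the spread between these libraries.

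Plasminogen is an inactive protease precursor that circulates in blood, and its active form, plasmin, dissolves fibrin and cleaves matrix proteins. Urokinase (uPA, encoded by PLAU) and tissue plasminogen activator (tPA, encoded by PLAT) are the proteases that convert it. Urokinase works at the cell surface while held by its receptor (uPAR, encoded by PLAUR), and tPA works mainly on fibrin or on membrane receptors. Serpins block both activators by trapping them in a covalent complex: protease nexin-1 (SERPINE2) binds thrombin as well as both activators, and plasminogen activator inhibitor 2 (SERPINB2) acts on urokinase and is also found inside cells. Genes of this system are widely used as markers of invasive tumour cells and of the secretome of senescent cells.

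Libraries held 25991007 to 32323393 counts. The summed level of 8 mesenchymal marker genes was 5122 to 5348 CPM (counts scaled to library size by the trimmed mean of M values) with GNF-7 for 24 h and 5829 to 6793 CPM in the other 4 groups, with PRRX1 at 0 counts in all 15. Between vehicle and GNF-7 at 24 h, FN1 (log2 fold change -1.13), CDH2 (-1.16), S100A4 (-1.21), TWIST1 (-0.35) and VIM (-0.12) of this list were called lower. COL6A1 (0.12) and COL6A2 (0.63) of the same list were called higher. Summed leukocyte markers reached at most 5.01 CPM. Summed epithelial markers stood at 1.56 to 2.54 CPM with GNF-7 for 24 h and at most 1.27 CPM elsewhere, and endothelial markers at 1.79 to 2.37 CPM and at most 1.46 CPM. Of these, CLDN4 (log2 fold change 1.02) and VWF (1.64) were called higher with GNF-7 at 24 h. TERF2, which encodes TRF2, had a level of 58.2 ± 3.65 CPM (SD, n = 3) in the cycling libraries and of 287 ± 8.17 CPM (SD, n = 3) in the senescent cells given vehicle for 6 h. It was called lower with GNF-7 at 6 h, by a log2 fold change of -0.37, and at 24 h, by -0.73. Counts per gene do not separate mutant from endogenous TERF2 reads. Mitochondrially encoded genes took 3.75% to 5.01% of counts in cycling cells, 11.2% to 12.4% in senescent vehicle cells at 6 h and 13.2% to 15.3% with GNF-7 at 6 h. They took 15.1% to 18.7% in vehicle at 24 h and 22.6% to 24.1% with GNF-7 at 24 h. TERF2, the mitochondrial share and, at 24 h with GNF-7, the mesenchymal, epithelial and endothelial sums therefore moved with the groups, and the part of each in the results below was not tested. With mitochondrial genes left out of the scaling, 25 of 25 values of the 5 genes kept their direction and their side of the threshold. In these bulk libraries, fewer cells of a kind and less RNA per cell cannot be told apart.

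The sequence just upstream of a start site is shown for the inhibitor genes SERPINB2 and SERPINE2, the members with the largest rises in senescence. Both come from RefSeq promoter entries (GRCh38.p14). RefSeq entries were searched for PLAU, PLAUR, SERPINE2 and SERPINB2 only, and gave 6 windows of 250 bases before a start. PLAT was not searched. Sequence is printed for 2 windows with at least 200 bases outside annotated exons. Capitals mark matches, on either strand, to any of 7 motifs searched. The letters TGANTCA stand for the AP-1 site, and those of the cyclic AMP response element (CRE) are TGACGTCA. An amino acid response element (CARE) was read as TGATGNAA, an ETS site as the letters CCGGAA and an E-box as the form CACGTG. The box that binds the TATA-binding protein was read as TATAAA, and the last motif is the CCAAT box itself. No match overlaps another in the 2 printed windows. The SERPINB2 sequence lies at chr18:63887455-63887699 on the plus strand, and the SERPINE2 sequence at chr2:224031479-224031728 on the minus strand, upstream of 1 of 2 RefSeq starts of that gene.
SERPINB2: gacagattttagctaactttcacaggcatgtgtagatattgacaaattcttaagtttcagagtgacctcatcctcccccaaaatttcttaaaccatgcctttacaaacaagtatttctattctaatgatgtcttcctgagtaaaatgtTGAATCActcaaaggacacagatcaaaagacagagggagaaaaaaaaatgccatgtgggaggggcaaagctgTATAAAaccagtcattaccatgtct
SERPINE2: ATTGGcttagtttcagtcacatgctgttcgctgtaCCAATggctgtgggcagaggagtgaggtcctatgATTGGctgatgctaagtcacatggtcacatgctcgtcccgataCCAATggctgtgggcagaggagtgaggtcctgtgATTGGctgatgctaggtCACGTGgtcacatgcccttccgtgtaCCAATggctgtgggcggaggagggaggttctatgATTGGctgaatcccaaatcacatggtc
SERPINB2 held an AP-1 match whose first base lies 102 bases before the start and a TATA match 30 bases before it. Among 35116 RefSeq windows of this length, 6.57% held the AP-1 letters and 10.7% the TATA letters. SERPINE2 held an E-box match 87 bases before this start, present in 6.34% of windows. It also held 7 CCAAT matches across both strands, where 32.0% of windows held at least 1. These 7 lie in closely alike stretches repeated along the window, so they are not separate observations, and windows holding 7 were not counted. Windows of PLAU and PLAUR lie within annotated exons. An AP-1 match lay 186 bases before the PLAUR start and a CCAAT match 182 bases before 1 of the PLAU starts. None of the 6 windows held the CRE, CARE or ETS letters, which were found in 1.65%, 3.14% and 14.5% of windows. Such matches describe letters in a window, not bound sites, and counts per gene do not tell which SERPINE2 start was used.

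Per kilobase of annotated exon, urokinase transcripts were the most abundant of the 5 in every group. Mean PLAU levels ran from 207 to 377 CPM per kilobase over the 5 groups. PLAT ranged from 45.02 to 119, PLAUR from 26.9 to 43.9 and SERPINE2 from 21.3 to 44.7 CPM per kilobase. SERPINB2 lay far below them, at 0.137 to 3.71 CPM per kilobase. This order uses the whole annotated exon length of each gene, and isoforms shorter than it would shift the values.

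**Figure D1:**
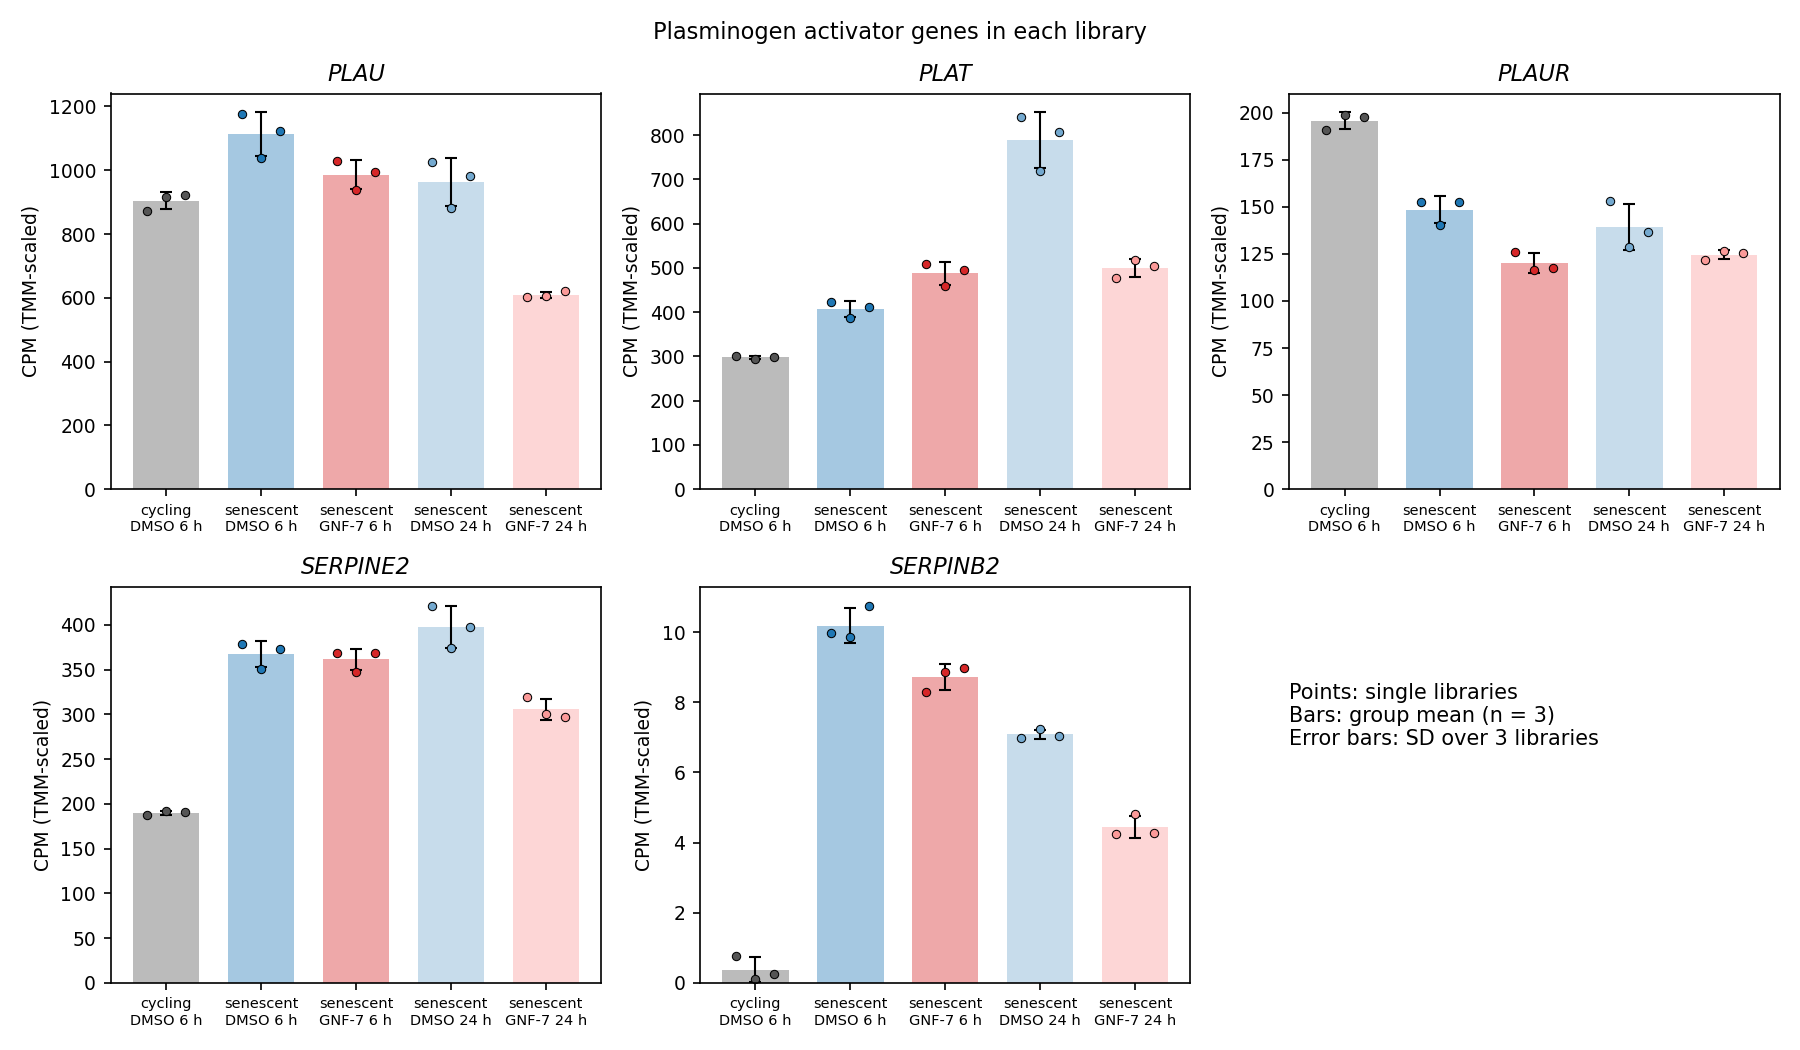
CPM of each library (points) and the group mean with its SD (bars), n = 3, for the 5 genes in the 5 groups, on axes of their own. SERPINB2 libraries of cycling cells lie below 1 CPM and those of senescent cells between 4.24 and 10.8 CPM.

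Each comparison was fitted with edgeR's quasi-likelihood test over 18563 genes, and a gene was called at a Benjamini-Hochberg adjusted p below 0.05. Between senescent and cycling cells in vehicle at 6 h, 4 of the 5 genes were called higher and 1 lower, where 35.6% of all genes tested were higher and 34.4% lower, 70.0% in all. GNF-7 at 6 h gave 1 member higher and 2 lower, against 17.9% and 21.4% of all genes (39.3% either way). GNF-7 at 24 h gave 0 higher and 5 lower, against 29.3% and 29.7% of all genes (58.9% either way). For the change of the GNF-7 response from 6 h to 24 h, tested as an interaction, 0 were higher and 3 lower, against 12.8% and 18.0% (30.8% either way). Between the vehicle groups at 24 h and 6 h, 2 were higher and 2 lower, against 9.26% and 9.29% (18.5% either way). In all comparisons the median over all genes tested lay, as a log2 fold change, between -0.00005 and 0.06, and all 5 genes passed the filter on low counts. SERPINB2 passed it through the senescent groups, so that a large difference from cycling cells was built into its passing.

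**Figure D2:**
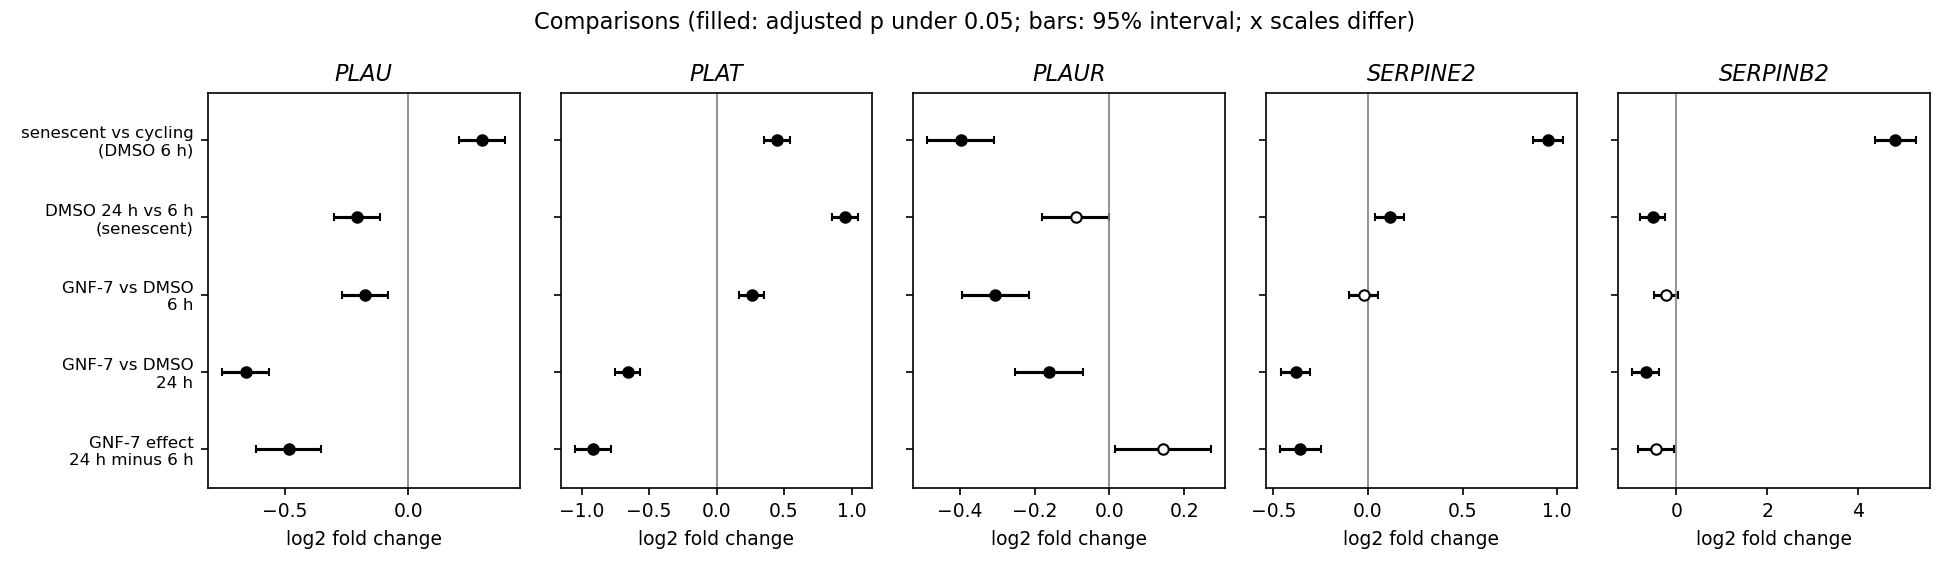
Log2 fold change of each gene with its 95% interval in the 5 comparisons, edgeR, n = 3 per group, with filled points for adjusted p below 0.05 and x axes that differ between genes. All 5 intervals lie below 0 for GNF-7 at 24 h, while PLAT alone lies above 0 for GNF-7 at 6 h.

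PLAU, the gene of urokinase (ENSG00000122861, chr10:73909177-73917497, plus strand, GRCh38), was highest in senescent vehicle cells at 6 h and lowest after 24 h of GNF-7. Its libraries read 874, 918 and 921 CPM in cycling cells and 1176, 1039.8 and 1123 CPM in senescent cells after 6 h of vehicle. The senescent libraries all lay above the cycling ones, and PLAU rose by 0.30 on the log2 scale (SE 0.0457, edgeR adjusted p = 1.25e-06). With GNF-7 for 6 h the libraries held 1028, 937 and 993 CPM, all below the vehicle libraries, and PLAU fell by 0.17 on the log2 scale (SE 0.0456, edgeR adjusted p = 0.00279). At 24 h the vehicle libraries held 1026, 882 and 981 CPM and the GNF-7 libraries 604, 605 and 621 CPM. That was a fall of 0.66 on the log2 scale (SE 0.046, edgeR adjusted p = 3.33e-13), to 0.633 of the vehicle level. The GNF-7 response at 24 h was lower than that at 6 h by a log2 difference of -0.48 (SE 0.0647, edgeR adjusted p = 6.95e-07). In vehicle, PLAU fell by 0.21 from 6 h to 24 h (edgeR adjusted p = 0.00139). The 3 GNF-7 libraries at 24 h lay below every other library, cycling cells included. Vehicle libraries at 24 h overlapped both the cycling and the GNF-7 6 h libraries, while all GNF-7 6 h libraries lay above the cycling ones. PLAU shares 916 exon bases with C10orf55 on the other strand, which had at most 170 counts in a library where PLAU had at least 18072.

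PLAT, the gene of tPA (ENSG00000104368, chr8:42175233-42207724, minus strand), followed another course and was the only one of the 5 to pass the test in opposite directions with GNF-7 at the 2 times. Cycling libraries held 301, 294 and 299 CPM and senescent vehicle libraries at 6 h 423, 386 and 412 CPM. All senescent libraries lay above the cycling ones, and PLAT rose by 0.45 on the log2 scale (SE 0.0467, edgeR adjusted p = 4.91e-10). GNF-7 for 6 h took it to 509, 458 and 496 CPM, a rise of 0.26 (SE 0.0462, edgeR adjusted p = 3.03e-05) with no overlap between the groups. Senescent vehicle cells at 24 h had the highest level, with 840.2, 718 and 807 CPM. PLAT had thus risen by 0.95 on the log2 scale from vehicle at 6 h (SE 0.0463, edgeR adjusted p = 6.1e-16, fold 1.94). By p-value this was rank 20 among the 18563 genes tested between the vehicle groups. With GNF-7 for 24 h the libraries held 478, 518 and 504 CPM, and PLAT fell by 0.66 against vehicle at 24 h (SE 0.046, edgeR adjusted p = 9.66e-14), to 0.634 of it. The GNF-7 libraries at 24 h overlapped those at 6 h, so that the 2 responses were measured against vehicle levels 1.94-fold apart. Their log2 difference was -0.92 (SE 0.0652, edgeR adjusted p = 8.03e-13).

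PLAUR, the gene of the urokinase receptor (ENSG00000011422, chr19:43646095-43670547, minus strand), was the one member lower in senescent than in cycling cells. Its libraries held 191, 199 and 198 CPM in cycling cells and 153, 140.3 and 152 CPM in senescent cells after 6 h of vehicle. The groups did not overlap, and PLAUR fell by 0.40 on the log2 scale (SE 0.0444, edgeR adjusted p = 1.39e-11). GNF-7 for 6 h gave 126, 116 and 118 CPM, all below vehicle, a fall of 0.31 (SE 0.0451, edgeR adjusted p = 1.3e-07). At 24 h the vehicle libraries held 153, 129 and 136 CPM and the GNF-7 libraries 122, 126 and 125 CPM. These groups lay close together without overlap, and PLAUR fell by 0.16 (SE 0.0452, edgeR adjusted p = 0.00166). Without vehicle replicate 1 at 24 h that value was -0.09 (edgeR adjusted p = 0.0831), and with only genes above a mean of 5 CPM it was -0.06 (edgeR adjusted p = 0.216). The GNF-7 response at 24 h minus that at 6 h was 0.14 in log2 fold change (95% interval 0.015 to 0.27, edgeR adjusted p = 0.0847), which passed the threshold as 0.15 with the replicate number as a block (edgeR adjusted p = 0.0455). Between the vehicle groups the value was -0.09 (edgeR adjusted p = 0.169), with overlapping libraries.

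SERPINE2, the gene of protease nexin-1 (ENSG00000135919, chr2:223975112-224039319, minus strand), was higher in every senescent library than in any cycling library. Cycling libraries held 187, 192 and 191 CPM and senescent vehicle libraries at 6 h 378, 351 and 373 CPM. The rise was 0.95 on the log2 scale (SE 0.0392, edgeR adjusted p = 1.29e-30, fold 1.94), and the groups lay far apart. After GNF-7 for 6 h the libraries held 368, 348 and 368 CPM and overlapped the vehicle libraries. The difference was -0.02 (95% interval -0.10 to 0.05, edgeR adjusted p = 0.674). At 24 h vehicle libraries held 421, 374 and 398 CPM against 319, 299.9 and 297 CPM with GNF-7. SERPINE2 fell by 0.38 on the log2 scale (SE 0.0384, edgeR adjusted p = 3.48e-13), yet all GNF-7 libraries remained above the cycling ones. The response at 24 h was below that at 6 h by a log2 difference of -0.36 (SE 0.0541, edgeR adjusted p = 2.27e-07). In vehicle, SERPINE2 rose by 0.11 from 6 h to 24 h (edgeR adjusted p = 0.026) although the libraries overlapped, and with scaling by total counts the value was 0.0047 (edgeR adjusted p = 0.955). That small rise was also lost without vehicle replicate 1 at 24 h, where it was 0.073 (edgeR adjusted p = 0.281).

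SERPINB2, the gene of plasminogen activator inhibitor 2 (ENSG00000197632, chr18:63871692-63903890, plus strand), was nearly silent in cycling cells and present at a low level in all senescent groups. Counts in the 3 cycling libraries were 19, 3 and 8, and in senescent vehicle cells at 6 h 301, 312 and 310. Expressed as CPM these were 0.764, 0.103 and 0.261 against 9.97, 9.85 and 10.8, with no overlap. The log2 fold change was 4.82 (SE 0.221, edgeR adjusted p = 3.02e-28, fold 28.3), beyond 98.7% of all genes tested in size. Since the cycling libraries hold so few counts, this value rests on them, and it was 5.75 without cycling replicate 1. SERPINB2 passed the filter through the senescent groups, so a large rise was built into its passing. Its adjusted p and its place by size are therefore given as a description. GNF-7 for 6 h gave 8.30, 8.88 and 8.97 CPM, each below every vehicle library, but the difference of -0.22 did not pass the test (95% interval -0.49 to 0.04, edgeR adjusted p = 0.184). At 24 h the vehicle libraries held 6.99, 7.23 and 7.04 CPM and the GNF-7 libraries 4.24, 4.81 and 4.28 CPM. SERPINB2 fell by 0.67 on the log2 scale at that time (SE 0.148, edgeR adjusted p = 8.41e-05), and it also fell by 0.52 between vehicle at 6 h and at 24 h (SE 0.137, edgeR adjusted p = 0.0036). The 5 groups of libraries were separate from each other in the order cycling, GNF-7 24 h, vehicle 24 h, GNF-7 6 h and vehicle 6 h. The change of the GNF-7 response from 6 h to 24 h was -0.45 (95% interval -0.85 to -0.05, edgeR adjusted p = 0.0822), and DESeq2 put it at -0.46 with an adjusted p of 0.0373. SERPINB2 shares 547 exon bases with SERPINB10 on the same strand, which had at most 8 counts in a library.

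Ratios of counts within a library do not depend on the scaling between libraries, so they were used to set urokinase beside an inhibitor and beside the other activator. PLAU counts were 4.67, 4.79 and 4.83 times those of SERPINE2 in the cycling libraries and 3.11, 2.96 and 3.01 times in senescent vehicle libraries at 6 h. The ratio was 2.79, 2.695 and 2.697 with GNF-7 for 6 h, 2.44, 2.36 and 2.47 in vehicle at 24 h and 1.89, 2.02 and 2.09 with GNF-7 for 24 h. It thus stood lower in every senescent library than in any cycling library, and lower in every GNF-7 library than in the vehicle libraries of the same time. The log2 differences were -0.65 for senescence, -0.15 for GNF-7 at 6 h, -0.28 for GNF-7 at 24 h and -0.32 for vehicle at 24 h against 6 h. With 3 libraries against 3, permuted without regard to replicate number, the two-sided exact permutation test gave p = 0.1 for each, the smallest this design allows, and 0.114 after Benjamini-Hochberg adjustment over 8 ratio comparisons.

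PLAU counts against PLAT counts stood at 2.91, 3.12 and 3.08 in cycling libraries and at 2.78, 2.69 and 2.73 in senescent vehicle libraries at 6 h. GNF-7 for 6 h gave 2.02, 2.05 and 2.00. By 24 h the vehicle libraries stood at 1.22, 1.23 and 1.22 and the GNF-7 libraries at 1.26, 1.17 and 1.23. The log2 difference was -1.16 between the vehicle groups and -0.43 for GNF-7 at 6 h, without overlap and each at an exact permutation p = 0.1. For GNF-7 at 24 h it was -0.0015 with overlapping libraries (exact permutation p = 1.0), and both activators fell by 0.66 on the log2 scale. These are ratios of counts, not of protein or of molecules, as the genes differ in exon length.

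**Figure D3:**
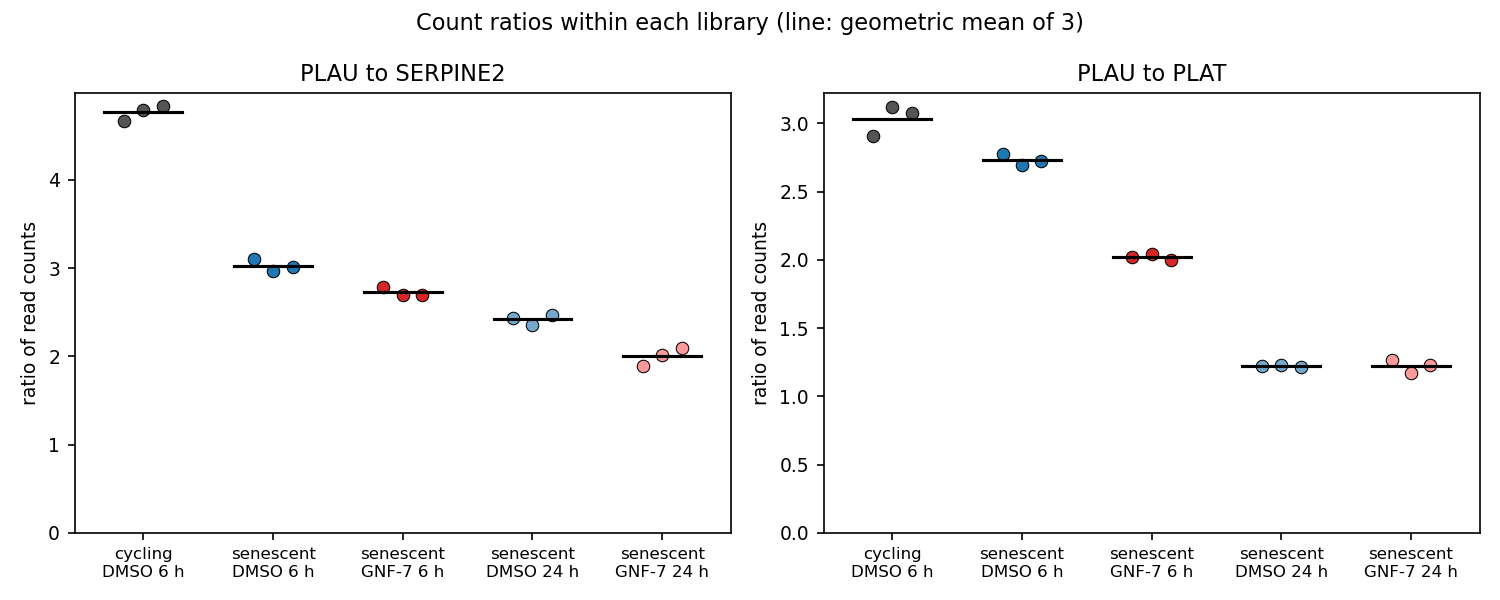
Ratio of PLAU to SERPINE2 counts and of PLAU to PLAT counts in each library (points) with the geometric mean of each group of 3 (horizontal lines), on linear axes from 0. The first ratio falls from a mean of 4.76 in cycling cells to 2.00 with GNF-7 for 24 h, and the second is 1.22 in both groups at 24 h.

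The other genes of the system were taken from a list of 74 genes, of which 59 passed the filter on low counts. Plasminogen itself (PLG) had at most 2 counts in a library and was 1 of 15 list genes not tested, whose highest count was 12. In senescence 26 list genes were called higher and 23 lower, that is 44.1% and 39.0% against 35.6% and 34.4% of all genes tested. With GNF-7 for 6 h 11 were higher and 21 lower, or 18.6% and 35.6% against 17.9% and 21.4% of all genes. With GNF-7 for 24 h 16 were higher and 32 lower, or 27.1% and 54.2% against 29.3% and 29.7%, with medians of -0.24 in the list and 0.04 in all genes on the log2 scale. For the change of the GNF-7 response from 6 h to 24 h 10 were higher and 25 lower, or 16.9% and 42.4% against 12.8% and 18.0%. Between the vehicle groups 10 were higher and 12 lower, or 16.9% and 20.3% against 9.26% and 9.29% of all genes. With scaling by total counts 5 were higher, a scaling that changed the share of higher calls among all called genes from 49.93% to 12.5%. The count of lower calls ran from 11 to 18 over alternatives other than leaving out a library. No test of the list as a set was made. The list was chosen with earlier results of these data known, so its shares are given as a description.

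Of 4 cell-surface plasminogen receptor genes tested (ANXA2, S100A10, ENO1 and PLGRKT), all were lower in senescent than in cycling cells. ANXA2, S100A10 and ENO1 were also lower with GNF-7 at each time. Of all genes tested, 34.4% were lower in senescence, 21.4% with GNF-7 at 6 h and 29.7% with GNF-7 at 24 h. PLGRKT was at 0.05 with GNF-7 at 6 h (edgeR adjusted p = 0.775) and at 0.20 at 24 h (edgeR adjusted p = 0.0882), neither past the threshold. Annexin A2 (ANXA2) and its partner S100A10 form a complex that binds tPA and plasminogen. ANXA2 went from 1996 ± 42.2 CPM (SD, n = 3) in cycling cells to 1628 ± 18.6 CPM in senescent cells (vehicle, 6 h), a log2 difference of -0.29 (edgeR adjusted p = 3.93e-12). It fell by 0.26 with GNF-7 at 6 h and by 1.16 at 24 h, from 1937 ± 58.9 CPM to 867 ± 8.17 CPM. S100A10 fell by 0.48 in senescence, by 0.32 with GNF-7 at 6 h and by 1.47 at 24 h (edgeR adjusted p = 2.26e-37). In vehicle from 6 h to 24 h, 3 of the 4 receptor genes were higher, ANXA2 by 0.25, where 9.26% of all genes tested were higher. The call of S100A10, 1 of these 3, was lost with scaling by total counts (edgeR adjusted p = 0.0507). ANXA2 has near-identical pseudogene copies, and how reads shared with them were counted is not given in the sources used here.

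Of 17 tested partners and clearance receptors of the urokinase receptor, 9 were higher and 4 lower in senescence, that is 52.9% and 23.5% against 35.6% and 34.4% of all genes tested. With GNF-7 at 24 h 3 were higher and 11 lower, or 17.6% and 64.7% against 29.3% and 29.7%. FPR1, among the 9 higher in senescence, had 7, 2 and 2 counts in cycling libraries. Senescent vehicle libraries at 6 h held 44, 41 and 48. FPR1 passed the filter through the senescent groups, so its rise was built into its passing. LRP1, an endocytic receptor that clears protease complexes from the cell surface, rose from 151 ± 4.98 to 667 ± 39.0 CPM (SD, n = 3) in senescence, a log2 fold change of 2.14 (edgeR adjusted p = 1.03e-49). It read 628.6 ± 9.57 CPM with GNF-7 for 24 h, a difference of -0.08 that did not pass the test (95% interval -0.15 to -0.0075, edgeR adjusted p = 0.0526). ITGA3, an integrin subunit known to associate with the urokinase receptor, rose by 1.09 in senescence, and the laminin-binding subunit ITGA6 fell by 1.23. Caveolin-1 (CAV1), a membrane scaffold, fell from 521 ± 25.5 to 135 ± 2.73 CPM with GNF-7 for 24 h, by 1.94 on the log2 scale (edgeR adjusted p = 6.94e-43). SORL1, another endocytic receptor of the LDL receptor family, was low, with 1.20 ± 0.0403 CPM in vehicle at 24 h, and rose by 1.70 with GNF-7.

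Among inhibitors outside the 5 genes, 4 of 7 were tested. In senescence 2 were higher and 0 lower, where 35.6% and 34.4% of all genes tested were higher and lower. The same counts held for GNF-7 at 24 h, where 29.3% and 29.7% of all genes were. SERPINI1, which encodes the tPA inhibitor neuroserpin, rose from 1.03 ± 0.331 to 6.85 ± 0.527 CPM (SD, n = 3) in senescence, by 2.76. SERPINF2, the gene of the plasmin inhibitor alpha-2-antiplasmin, rose with GNF-7 at 24 h from 0.992 ± 0.34 to 4.05 ± 0.29 CPM, by 2.04 (edgeR adjusted p = 6.01e-10). A2M, an inhibitor of many proteases, was called higher in senescence at 1.95, with overlapping libraries. That call was lost without cycling replicate 1 (edgeR adjusted p = 0.0585), cycling replicate 2 (0.0859) or senescent vehicle replicate 1 at 6 h (0.209). A2M had 1, 0 and 9 counts in cycling libraries and passed the filter through the senescent groups, so its place among the 2 rests on them.

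**Figure D4:**
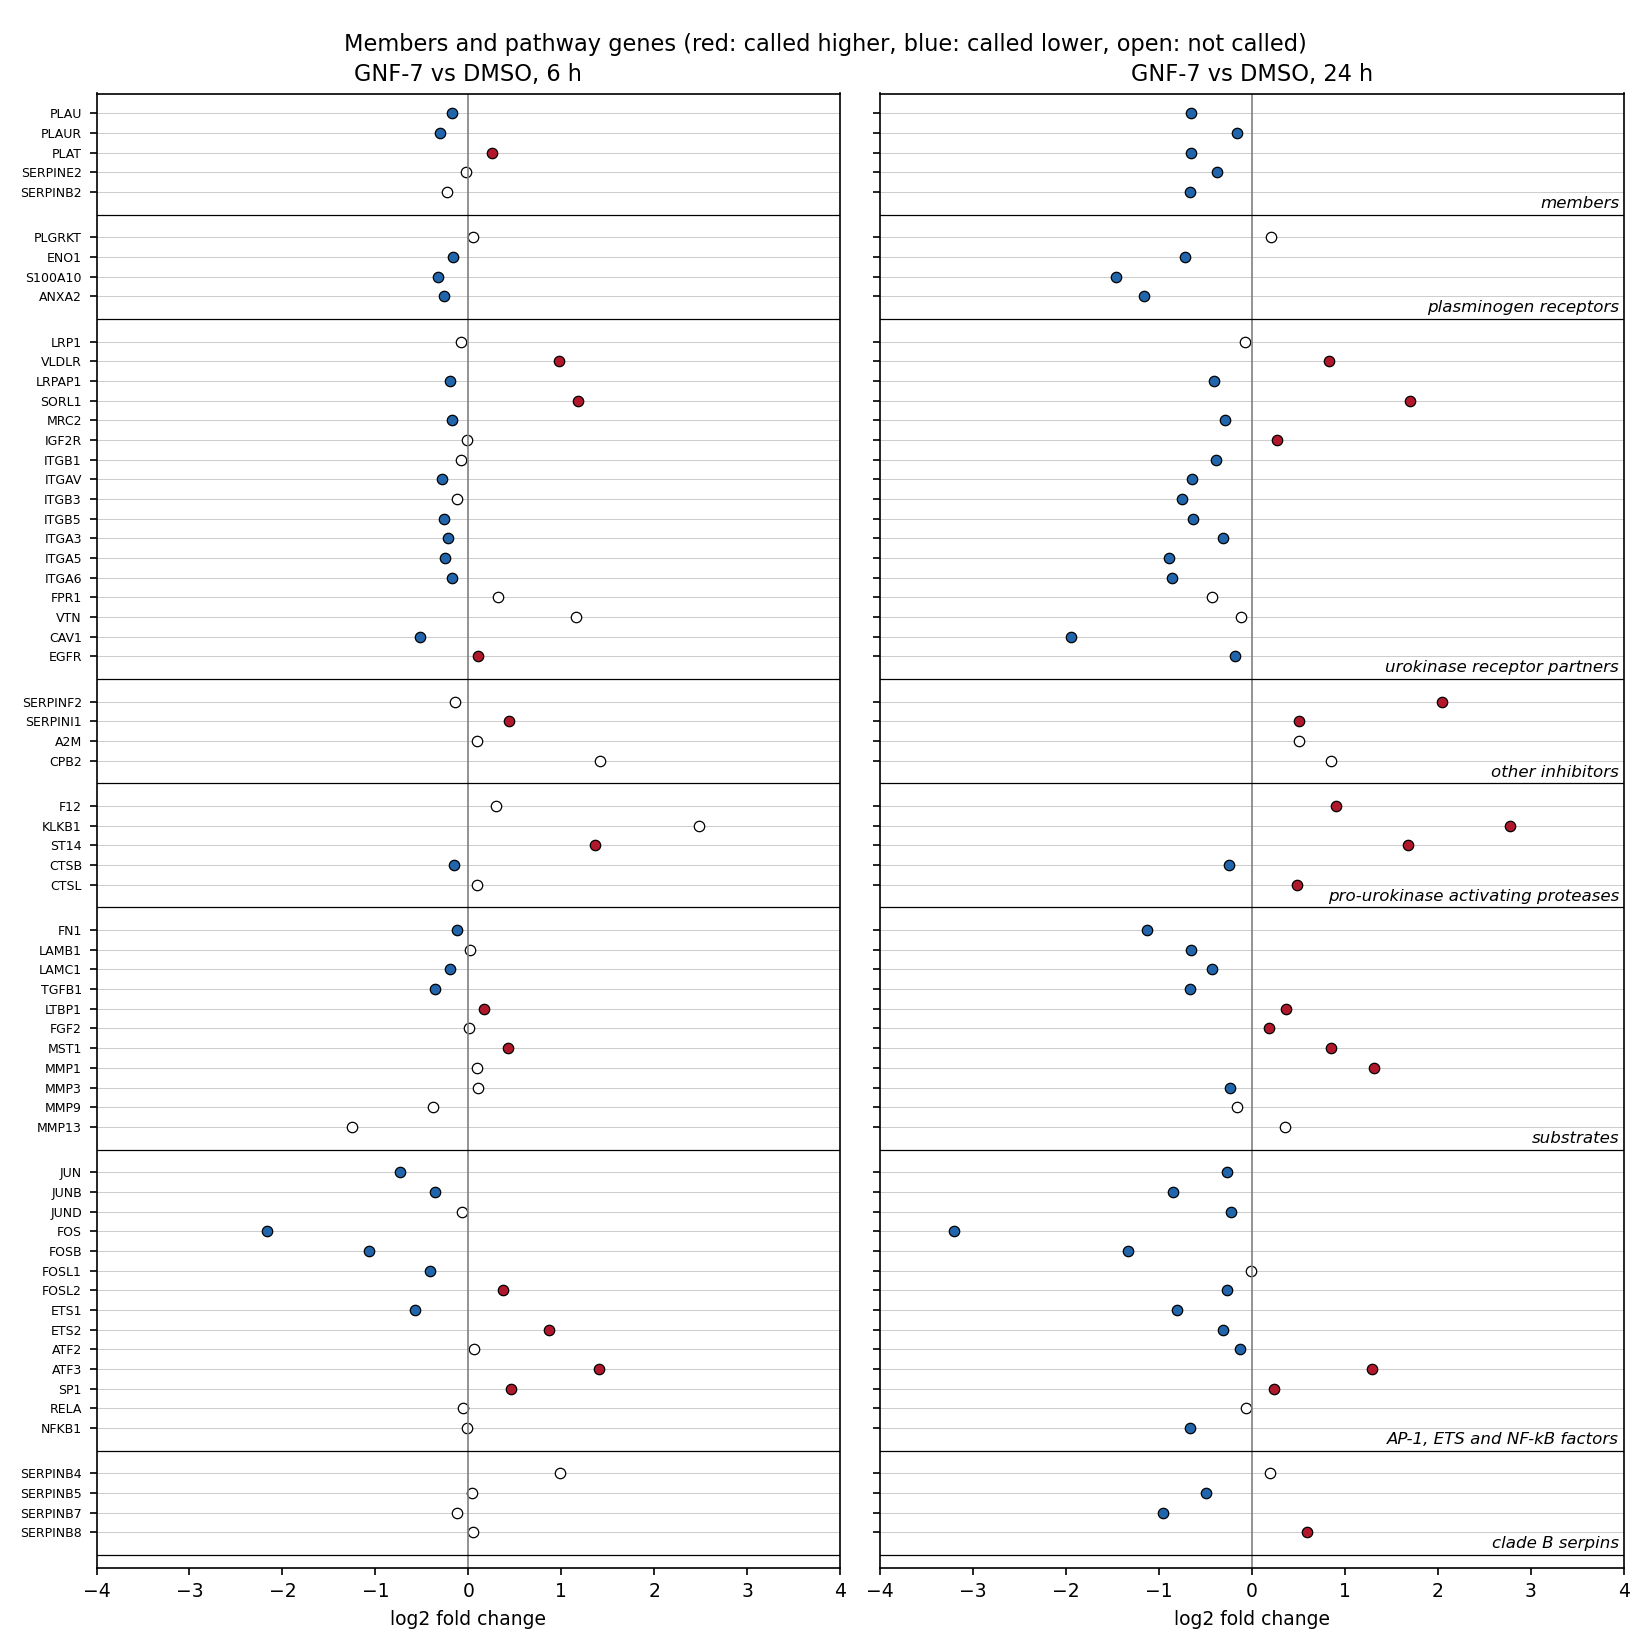
Log2 fold change (edgeR, n = 3 per group) of the 5 genes and of each tested gene of the lists, for GNF-7 against vehicle at 6 h (left) and 24 h (right), with genes called higher in red, called lower in blue and not called as open points. ANXA2 and S100A10 lie at -0.26 and -0.32 at 6 h and at -1.16 and -1.47 at 24 h.

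Proteases that activate pro-urokinase and proteins acted on by plasmin or urokinase made up 2 further lists. Of 5 activating proteases tested, 2 were higher and 1 lower in senescence, against 35.6% and 34.4% of all genes tested. The higher ones were CTSB (1.10) and CTSL (0.56), and the lower one was F12 (-0.42). With GNF-7 at 24 h 4 were higher and 1 lower, where 29.3% and 29.7% of all genes tested were higher and lower. CTSL (0.49) and F12 (0.90) were among the 4, and CTSB was the 1 lower (-0.25, edgeR adjusted p = 7.68e-09). Matriptase (ST14) counts were 21, 10 and 8 in vehicle and 52, 37 and 43 with GNF-7 at that time, a rise of 1.68 (edgeR adjusted p = 0.000514). Plasma kallikrein (KLKB1) counts were 4, 4 and 0 against 20, 21 and 19, and since the gene shares 201 exon bases with CYP4V2 on the same strand, which reached 788 counts, its value is uncertain. KLKB1 had at most 5 counts in a library of any other group and passed the filter through the GNF-7 group at 24 h, so its place among the 4 rests on the group where it is high. Of 11 substrates tested, 6 were higher and 5 lower in senescence, against 35.6% and 34.4% of all genes tested. Stromelysin-1 (MMP3) rose by 2.88 and interstitial collagenase (MMP1) by 1.85, while gelatinase B (MMP9) fell by 1.79 and collagenase-3 (MMP13) fell by 2.82. MMP13 had 38, 26 and 50 counts in cycling libraries and at most 9 in a senescent library, so it passed the filter through the cycling group and its fall was built into its passing. With GNF-7 at 24 h MMP1 rose further, from 27.3 ± 1.14 to 68.1 ± 2.31 CPM (SD, n = 3), by 1.32 (edgeR adjusted p = 1.34e-27). Fibronectin (FN1) fell by 1.13 at that time, from 1885 ± 90.5 to 860.1 ± 27.2 CPM.

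A list of 14 transcription factors held members of the AP-1, ETS and NF-kB families, which are known to act on promoters of this system, and SP1, a zinc finger factor outside them. All 14 were tested. In senescence 4 were higher and 8 lower, that is 28.6% and 57.1% against 35.6% and 34.4% of all genes tested. With GNF-7 at 24 h 2 were higher and 10 lower, or 14.3% and 71.4% against 29.3% and 29.7%. SP1 was among the 8 lower in senescence (-0.81) and among the 2 higher with GNF-7 at 24 h (0.23). FOS counts were 731, 267 and 456 in vehicle and 63, 41 and 61 with GNF-7 at 24 h, a fall of 3.21 on the log2 scale (edgeR adjusted p = 0.00067). Its level spread widely within groups, from 6.44 to 17.2 CPM in senescent vehicle cells at 6 h. ATF3 rose from 26.9 ± 2.198 to 71.0 ± 3.21 CPM (SD, n = 3) with GNF-7 at 6 h, by 1.40, and by 1.29 at 24 h. ETS2 rose by 0.87 with GNF-7 at 6 h and fell by 0.31 at 24 h. NFKB1 fell by 1.08 in senescence.

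Genes whose log2 CPM most resembled each of the 5 over the 15 libraries were found by Pearson's r among 11070 genes with a mean of at least 5 CPM. The 15 points fall into 5 groups and share libraries and scaling, so r mainly reads the likeness of 5 group levels and is given as a description. For PLAU these were FNDC3B (r = 0.987), PIK3C3 (r = 0.985) and CD44 (r = 0.978). FNDC3B mean levels were 220.6, 275, 239, 239.8 and 126 CPM in cycling, vehicle 6 h, GNF-7 6 h, vehicle 24 h and GNF-7 24 h cells. PLAUR was most like DICER1 (r = 0.985), ST7 (r = 0.981) and CHD4 (r = 0.98), all highest in cycling cells. PLAT was most like RAB26 (r = 0.955), STAMBP (r = 0.954) and CAPNS1 (r = 0.945), and RAB26 shared its peak in vehicle at 24 h, at 31.97 ± 0.69 CPM (SD, n = 3). SERPINE2 was most like ITM2B (r = 0.994), EDIL3 (r = 0.993) and SMPD1 (r = 0.993), and EDIL3 went from 8.41 ± 0.585 CPM in cycling to 46.2 ± 1.63 CPM in senescent cells given vehicle for 6 h. SERPINB2 was most like PEX16 (r = 0.985), ABCC10 (r = 0.981) and PCDHGA2 (r = 0.975), none of which came as close to 0 in cycling cells.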

How the data were processed

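RNA of HT-1080 cells was sequenced in 15 libraries, 3 per group. The deposited table holds raw counts per Ensembl gene. The submitters' processing notes name bcl2fastq 2.20.0.422, STAR 2.7.9a, featureCounts 1.5.1 and GRCh38. The labels' protocols name a stranded mRNA kit, while the annotation release, the strand setting and the treatment of multiply mapped reads are not given in the sources used here. Of 60673 rows, 3 that held 1 broken entry were left out, and 99.55% of the remaining identifiers had a symbol. Within each group the libraries differed beyond sampling noise, so none was merged.

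Counts were tested in edgeR 4.0.16 (R 4.3.3) with filterByExpr, which kept 18563 genes, TMM scaling and a robust quasi-likelihood fit of all 15 libraries by group. The common biological coefficient of variation was 4.64%. P-values were adjusted by Benjamini-Hochberg over all genes tested. The procedure was tested on data simulated from its own fitted spread, for GNF-7 at 6 h only, which cannot test that spread. Intervals are at 95%. Coordinates, exon lengths and overlaps were read from GENCODE 29 (GRCh38), whose genome build is that of the notes. In each list and comparison the genes named are those called with a change of at least 2-fold and otherwise the 3 with the smallest p. Not every such gene is printed, and 1 gene was left out of the lists and is not reported here. The members and lists were chosen with earlier results of these data known. No batch is given in the labels. Alternatives were other size factors (DESeq2 1.42.0), total counts, scaling without mitochondrial genes, no filter, a filter at 5 CPM, DESeq2, limma 3.58.1 (voom), only the groups compared, a replicate block and leaving out each library.

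Same-numbered replicates deviated together at 24 h with and without GNF-7, with correlations of their deviations from the group means of 0.154, 0.12 and 0.11. All 3 exceeded 0.1, a hint that the numbers, taken from the sample titles, pair those samples. Except where a block is named, values and tests are from fits by group with no block, and ratio tests permuted libraries without regard to number. In the other comparisons at least 1 pair fell below 0.1.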

Additional observations from a re-analysis of the deposited data

Results flagged for a closer look

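The response to GNF-7 differed between 24 h and 6 h, by a test of the difference itself, for PLAU (-0.48 in log2 fold change), PLAT (-0.92) and SERPINE2 (-0.36), as described above. The same test was passed by TERF2 (-0.36), the gene of TRF2, so its transcript level moved with these genes, and its part was not tested. Of the 59 other genes of the system tested, 25 had a lower and 10 a higher response at 24 h than at 6 h. These are 42.4% and 16.9%, against 18.0% and 12.8% of all genes tested. Those named here are the ones called with at least a 2-fold difference or among the 3 smallest p-values of their list. The difference was negative for S100A10 (-1.14), CAV1 (-1.43), FN1 (-1.01), ETS2 (-1.18), SERPINB5 (-0.53) and SERPINB7 (-0.84). It was positive for SERPINF2 (2.19), MMP1 (1.22), CTSL (0.40), SERPINB8 (0.53) and F12 (0.61). For F12 (coagulation factor XII) the edgeR adjusted p of 0.0103 was 0.0765 without vehicle replicate 3 at 6 h and 0.0577 without vehicle replicate 3 at 24 h, and the gene shares 399 exon bases with GRK6 on the other strand. Both responses of a gene were measured against their own vehicle groups, and all edgeR adjusted p-values of the genes listed here were at most 0.0103.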

How the results depend on the processing

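Of 405 values of the 5 genes under alternatives, 387 kept their direction and their side of the threshold, as did 1369 of 1414 values of named pathway genes and TERF2. Within 1.5 times the count of the fit as reported lay 81 of 81 counts of all genes called, which ranged from 9211 to 13032 in senescence (12999 as reported) and from 2535 to 5018 between vehicle groups (3443), and 161 of 162 pathway list counts. With the replicate number as a block, 24 of 25 values of the 5 genes kept both, and the exception was the change of the PLAUR response to GNF-7 from 6 h to 24 h (0.15). That change was 0.19 with a filter at 5 CPM, and leaving out each library gave 0.0853 to 0.214, past the threshold without vehicle replicate 1 at 24 h, vehicle replicate 2 at 6 h or GNF-7 replicate 1 at 6 h. For SERPINB2 the same change passed in DESeq2 (-0.46) and with only the groups compared (-0.46). PLAUR with GNF-7 at 24 h was -0.062 with the 5 CPM filter and -0.22 to -0.094 without single libraries, lost only without vehicle replicate 1 at 24 h. SERPINE2 with GNF-7 at 6 h, not called, was 0.029 with that filter and -0.058 to 0.017 without single libraries, above 0 without GNF-7 replicate 2 at 6 h. The log2 ratio of PLAU to PLAT at 24 h ranged from -0.027 to 0.030 without single libraries, above 0 without replicate 2 of either group. Between vehicle groups, PLAUR was -0.20 by total counts and -0.16 to -0.034 without single libraries, called without vehicle replicate 1 at 24 h. SERPINE2 was 0.0047 by total counts, 0.10 without a filter and 0.073 to 0.16 without single libraries, lost without vehicle replicate 1 or 3 at 24 h or replicate 2 at 6 h. There 5 list genes were called higher by total counts, SERPINB8 was -0.063 by total counts against 0.048, and A2M, -0.66 with all libraries, ranged from -0.96 to 0.14, above 0 without vehicle replicate 1 at 6 h. SERPINI1, 0.053 and not called, was -0.057 by total counts and -0.015 to 0.098 without single libraries, below 0 without vehicle replicate 2 at 6 h or replicate 1 at 24 h. With the 5 CPM filter the senescence values of PLAU and PLAUR were 0.45 and -0.25, and by total counts PLAU in vehicle was -0.32. Total counts moved the median of all genes to 0.20 in senescence and -0.10 between vehicle groups. For these calls the cause was not tested. SERPINB2 in senescence ranged from 4.36 to 5.75 without single libraries, as few cycling counts limit its precision.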

Other observations

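Other serpins of clade B, the family of SERPINB2, were measurable for 4 of 9 genes. In senescence 3 were called higher and 1 lower, where 35.6% of all genes tested were higher and 34.4% lower, 70.0% in all. SERPINB7 rose from 17.1 ± 1.18 to 63.6 ± 6.01 CPM (SD, n = 3), by 1.90 on the log2 scale (edgeR adjusted p = 1.54e-19), and SERPINB5 (maspin) rose from 39.1 ± 0.582 to 60.1 ± 0.247 CPM, by 0.62. SERPINB8 fell from 57.0 ± 0.712 to 39.8 ± 2.06 CPM, by 0.52. SERPINB4 was called higher at 2.27 on few counts, and the call was lost without cycling replicate 1 (edgeR adjusted p = 0.131), without cycling replicate 2 (0.152) and without senescent vehicle replicate 2 at 6 h (0.411). With GNF-7 for 24 h SERPINB7 fell to 30.5 ± 2.11 CPM from 59.3 ± 4.4998 CPM in vehicle, by 0.96 (edgeR adjusted p = 1.46e-12), and SERPINB5 fell by 0.49. SERPINB8 went the other way, rising from 41.2 ± 1.79 to 61.9 ± 2.7003 CPM, by 0.59 (edgeR adjusted p = 1.17e-14). None of the 4 passed the test with GNF-7 at 6 h with all libraries, where 39.3% of all genes tested did. SERPINB7, at -0.12 then (edgeR adjusted p = 0.188), was at -0.20 without vehicle replicate 2 at 6 h (edgeR adjusted p = 0.0179) and without GNF-7 replicate 1 at 6 h (edgeR adjusted p = 0.0163).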
